A study of Homo sapiens with 6 samples.

Results

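The 10 integrin subunit genes described here are the alpha subunits ITGA1, ITGA2, ITGA3, ITGA5, ITGA6 and ITGAV and the beta subunits ITGB1, ITGB3, ITGB4 and ITGB5. They were chosen by symbol and are 10 of the 21863 gene symbols with an RPKM (reads scaled by transcript length and by the library's mapped reads) in the deposited data. ITGA2 is a candidate miR-497 target of the study, and it became one in part through its value in these libraries, so that value is not independent evidence for it. All 10 genes had an RPKM above 0 in each of the 6 libraries, and 7 of the 10 reached an RPKM of 1 in at least 1 total RNA library.

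Integrins are adhesion receptors of the cell surface, each made of an alpha and a beta subunit. They bind proteins of the extracellular matrix outside the cell, and inside it they connect to actin through talin, kindlin and the ILK complex and signal through focal adhesion kinase. The alpha subunit largely sets the ligand. Paired with ITGB1, ITGA1 and ITGA2 bind collagens, ITGA3 and ITGA6 bind laminins and ITGA5 binds fibronectin, while ITGAV with ITGB3 or ITGB5 binds vitronectin and related proteins. A miRNA loaded into Argonaute 2 (Ago2) pairs through its seed with sites in the 3′UTR of an mRNA, and such pairing usually lowers the mRNA or its translation.

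The cells were Hep G2, an established line from a human liver tumor, and the 3 conditions were NT (no transfection), transfection with dsRNA mimicking miR-195 and transfection with dsRNA mimicking miR-497. The mimics were used at 5 nM for 24 hours, and the labels give NT a time of 0 hours. From each condition 1 library of total RNA and 1 library of RNA precipitated with anti-Ago2 antibody (Ago2-IP) were sequenced, so every group holds 1 library and no value has a replicate check. No cells transfected with a control RNA were among the 6 libraries, so an effect of transfection or of time and an effect of a mimic cannot be told apart. Both mimics are compared with the same NT libraries, and a deviation of an NT library enters both comparisons.

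Read numbers inferred from the RPKM summed to between 24348198 and 31260919 in the total RNA libraries and to between 2763912 and 5306428 in the Ago2-IP libraries. They allowed 95% counting intervals for 9 of the 10 integrin genes. No reads could be inferred for ITGA1. For these 9 the length implied by the reads was 0.758 to 1.09 times the canonical transcript. These intervals cover counting error only, and neither variation between cultures nor variation between libraries enters them. All 7 hepatocyte markers examined, AFP and APOB among them, were above an RPKM of 1 in every library, with summed RPKM between 7633 and 7877 in total RNA, and the leukocyte genes PTPRC and CD3E were at 0 in every library. In Ago2-IP the median gene stood at 1.39 times NT after the miR-195 mimic and at 0.855 times NT after the miR-497 mimic, so Ago2-IP values are read against those medians. In total RNA the medians were 1.01 and 1.06. An RPKM is a share of a library, so fewer cells with an mRNA and less mRNA per cell cannot be told apart. Antisense RNAs overlap exons of ITGA1, ITGA5, ITGA6, ITGAV and ITGB1 by 48 to 1385 bases per antisense gene, and the sources used here do not say whether reads were counted by strand.

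The mature sequences of the transfected miRNAs show why 1 search served for both. They are taken from RefSeq on GRCh38.p14, with the seed, bases 2 to 8, in capitals.

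hsa-miR-195-5p: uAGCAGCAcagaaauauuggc

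hsa-miR-497-5p: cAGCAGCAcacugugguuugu

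The seed was the same in both, and 12 of the 21 positions were equal over the whole length. The sequence that pairs with it, TGCTGCT, was searched on the transcript strand in every annotated 3′UTR of protein-coding transcripts (GENCODE release 44, placed on GRCh37, which is the hg19 assembly the authors used). It was found in 3 of the 10 integrin genes, ITGA1, ITGA2 and ITGB1, and in 25.2% of the 18191 genes with a 3′UTR. The 5 matches follow with their preceding and next bases, and TGCTGCT is in capitals.

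ITGA1, chr5:52252816-52252822: aggcacattacaaaaggctaaaTGCTGCTg

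ITGA1, chr5:52254027-52254033: ccaggtgacaatctttccgtcaTGCTGCTg

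ITGA2, chr5:52386941-52386947: aaacacaggttttttcaatttaTGCTGCTc

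ITGA2, chr5:52388426-52388432: tcttttaacagctgtgagaattTGCTGCTt

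ITGB1, chr10:33176685-33176691: catgcagctgagagccaagcccTGCTGCTc

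ITGA1 and ITGA2 lie on the plus strand of chromosome 5, at chr5:52083750-52255039 and chr5:52285170-52390609. The ITGA1 matches begin at bases 4535 and 5746 of a 3′UTR of 6758 bases, and those of ITGA2 at bases 512 and 1997 of a 3′UTR of 4180 bases. These 3′UTRs are long, longer than those of 96.6% and 89.4% of genes. Of genes with a 3′UTR within 1.25-fold of these lengths, 57.0% and 45.7% hold TGCTGCT. The ITGB1 match, on the minus strand, begins at base 1189 of the 1679-base 3′UTR of the transcript ITGB1-219. The canonical 3′UTR of ITGB1, of 1252 bases, has no match, and the RPKM do not tell these transcripts apart. None of the 5 matches is followed by an A, the base that completes the stronger 8-base form of such a site, and TGCTGCTA was found in none of the 10 genes and in 5.13% of all genes. ITGB5, on chr3:124480795-124620265, held only the 6-base core GCTGCT, which is also part of TGCTGCT and occurs in 45.9% of genes. Its core at chr3:124482284-124482289 is followed by an A, a weaker form of site.

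ITGB5, chr3:124482284-124482289: aggtgcctggccatgtcacctgGCTGCTa

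ITGA3, ITGA5, ITGA6, ITGAV, ITGB3 and ITGB4 held neither sequence in any annotated 3′UTR, although the 3′UTRs of ITGAV and ITGB3 have 3609 and 3539 bases. The absence of a match says only that these letters are not in the annotated windows.

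**Figure D1:**
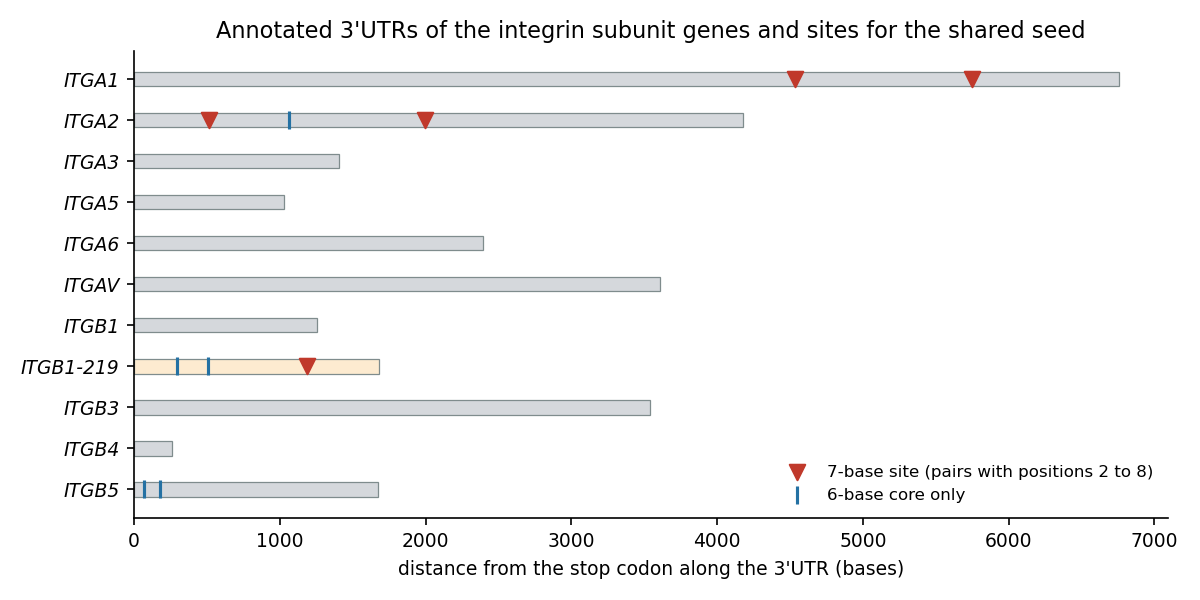
Annotated 3′UTRs of the 10 integrin subunit genes, drawn to scale from the stop codon (horizontal axis, bases), with the ITGB1-219 transcript in a second bar for ITGB1. Red triangles mark TGCTGCT and blue ticks the 6-base core alone. ITGA1 and ITGA2 carry 2 triangles each, and the only triangle of ITGB1 lies in ITGB1-219.

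In NT total RNA the subunits fell into an abundant and a scarce set. ITGB1, the shared beta subunit, stood first at an RPKM of 154.7, followed by ITGAV at 47.9, ITGA6 at 44.4, ITGB5 at 42.9, ITGA2 at 21.8 and ITGA1 at 14.2. ITGA3 stood at 1.13, ITGB4 at 0.625, ITGA5 at 0.238 and ITGB3 at 0.0743. Neighbours in this order were separated beyond their counting intervals wherever both had one, except ITGA6 (43.4 to 45.5) and ITGB5 (41.5 to 44.3). The 6 abundant genes held 99.4% of the summed RPKM of the 10 in NT, and 99.1% and 98.9% with the mimics.

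Hep G2 cells thus contained transcripts for both collagen receptors, for the laminin receptor of ITGA6 and ITGB1 and for the vitronectin receptor of ITGAV and ITGB5. The fibronectin receptor alpha subunit ITGA5 was represented by 25 reads in NT total RNA, the beta subunit ITGB3 by 9 reads and the laminin-binding beta subunit ITGB4 by 94 reads. ITGB1 made up 78.0% of the summed RPKM of the 4 beta genes in NT, 72.4% with miR-195 and 71.5% with miR-497. The sum over the 6 alpha genes was 129.8 in NT, 154.1 with the miR-195 mimic and 120.5 with the miR-497 mimic. The corresponding beta sums were 198.3, 203.3 and 189.3.

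**Figure D2:**
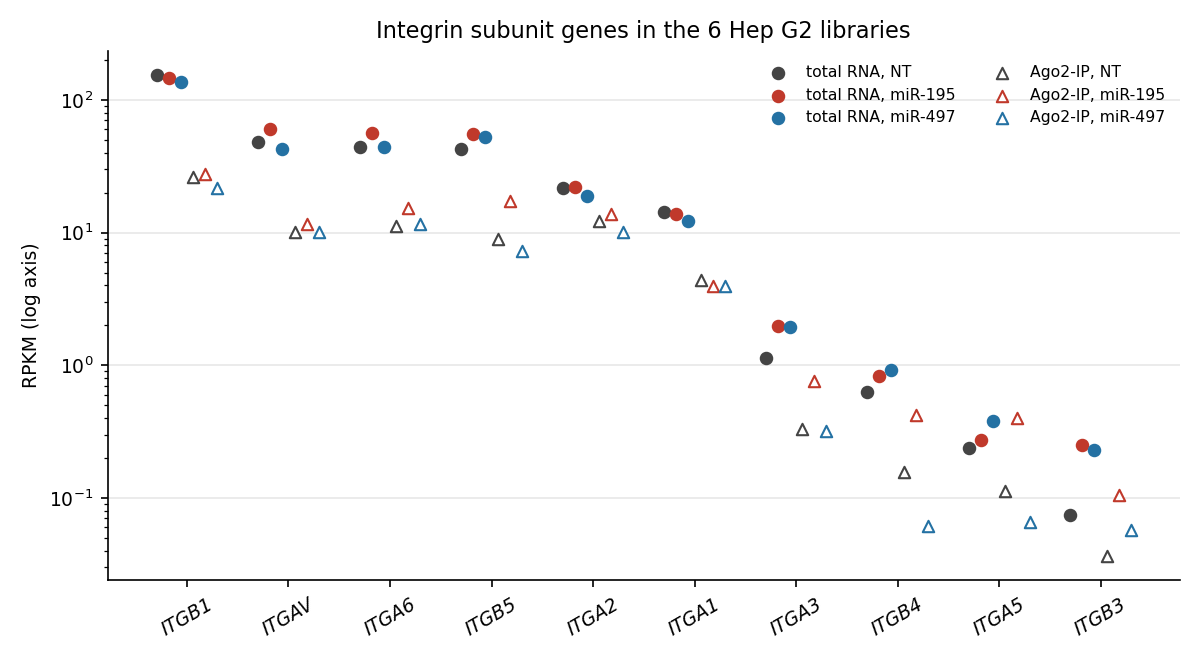
RPKM (log axis) of the 10 genes in each of the 6 libraries, ordered by NT total RNA; filled circles are total RNA, open triangles Ago2-IP, and colors give the condition. Each symbol is 1 library. ITGB1 lies at the top and 4 genes lie near or under an RPKM of 1 in total RNA.

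The comparison of total RNA asks which subunit mRNAs were less abundant with a mimic. No integrin gene was 2-fold or more lower with either mimic, beside 3.20% of 14740 genes for miR-195 and 2.11% of 14768 genes for miR-497. ITGB3 alone was 2-fold or more higher, with both mimics, beside 5.81% and 6.67% of all genes. The median over the 10 genes was 0.33 on the log2 scale with miR-195, where the median of all genes was 0.02, and 0.15 with miR-497, where that of all genes was 0.09. Of the 9 genes with counting intervals, 6 lay wholly above the median of all genes with miR-195 and 1, ITGB1, wholly below it, beside 24.1% and 26.8% of all genes with an interval. With miR-497, 4 lay wholly above and 4 wholly below, beside 27.3% and 30.1%.

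The 3 genes with TGCTGCT had the 3 lowest total RNA ratios of the 10 with each mimic. With miR-195 they stood between -0.07 and 0.01 on the log2 scale, and the 7 genes without a match stood between 0.20 and 1.75. With miR-497 they stood between -0.22 and -0.19, and the others between -0.17 and 1.64. The values of the groups therefore did not overlap, although with miR-497 the gap to ITGAV was small. With miR-195 the nearest gene without a match was ITGA5, from 25 and 34 reads. Its counting interval (-0.55 to 0.94) includes all 3 genes with a match. If ITGB1 is placed by its canonical 3′UTR among the genes without a match, the groups overlap with miR-195 and stay apart with miR-497. The gap with miR-497 is then small, from ITGA1 at -0.21 to ITGB1 at -0.19. There the counting interval of ITGA2 (-0.28 to -0.16) includes both ITGB1 and ITGAV. Over all genes the same division gave small differences. For miR-195 the median was -0.07 over 3688 genes with a match and 0.04 over 9703 without one, and for miR-497 the medians were 0.01 and 0.11. Under the median of all genes lay 2173 of the 3688 and 4606 of the 9703 with miR-195. With miR-497 these counts were 2074 of 3704 with a match and 4701 of 9712 without one. This division of the integrin genes was looked at after their values were known. The genes with a match are also 3 of the 6 abundant ones, and 2 of them have the longest 3′UTRs; the parts of abundance and 3′UTR length in the ordering were not tested.

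**Figure D3:**
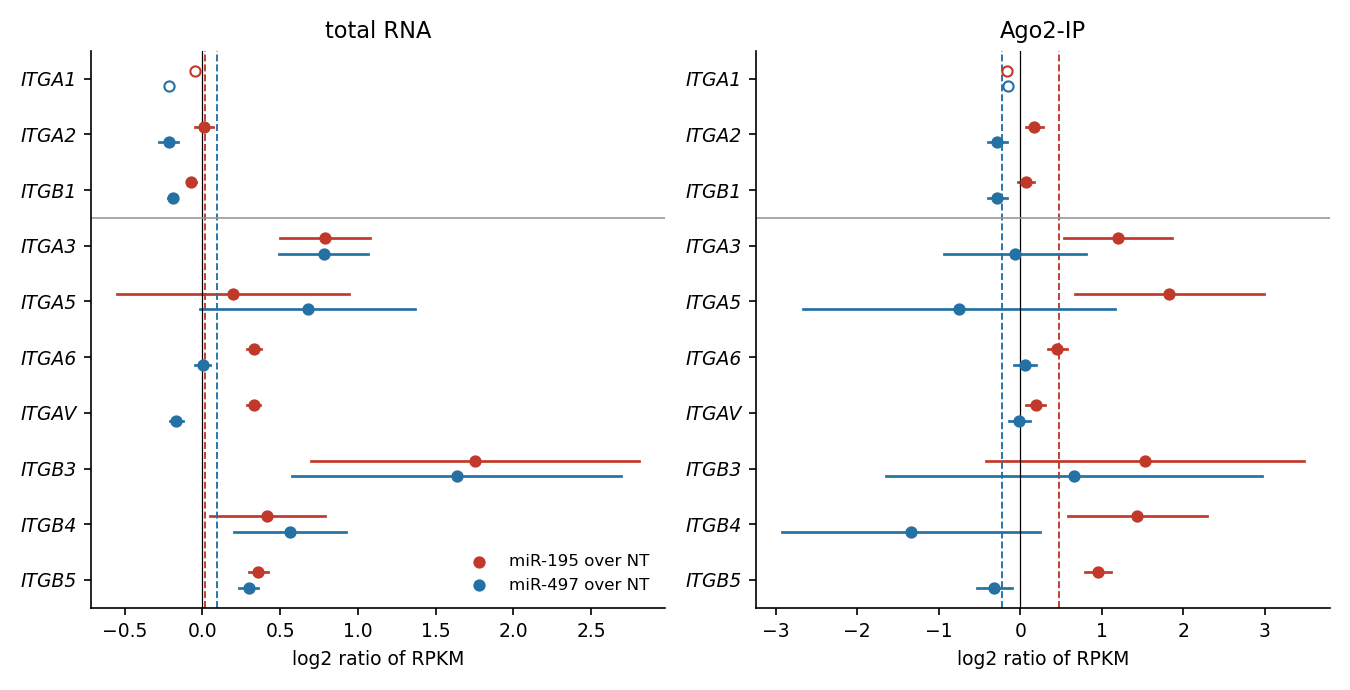
Log2 ratio of RPKM, mimic over NT, in total RNA (left) and Ago2-IP (right) for each gene, with miR-195 in red and miR-497 in blue. Bars are 95% counting intervals, open circles have none, dashed lines are the medians of all genes, and the 3 genes above the grey line hold TGCTGCT. In total RNA those 3 sit at the left edge of both series of points.

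Among the collagen receptors, ITGA2 had an RPKM of 21.8 in NT total RNA, 21.99 with miR-195 and 18.8 with miR-497, from 4251, 5077 and 4575 reads. The miR-497 library was the low one. The miR-195 ratio to NT was 1.01 (95% counting interval 0.967 to 1.05), the miR-497 ratio was 0.860 (0.824 to 0.896), and 23.2% of all genes had a lower ratio with miR-497. Compared directly, ITGA2 was 1.17-fold (1.13 to 1.22) as high with miR-195 as with miR-497, where the median gene was at 0.951. ITGA1 followed a similar course, with RPKM of 14.2 in NT, 13.8 with miR-195 and 12.3 with miR-497, giving ratios of 0.969 and 0.863 without counting intervals. ITGA1 shares 499 exonic bases with PELO on the same strand, so reads of these genes may not be separable. PELO stood at an RPKM of 12.7, 12.4 and 13.9 in total RNA.

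ITGB1, the partner of both collagen-binding subunits, had an RPKM of 154.7 in NT, 147.2 with miR-195 and 135.4 with miR-497. Its ratios were 0.952 (0.931 to 0.972) and 0.875 (0.856 to 0.894). NT was the highest of the 3 total RNA libraries, and ITGB1 was the most deeply sampled gene of the group, with 15640 to 17654 reads.

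Among the laminin receptors, ITGA6 had an RPKM of 44.4 in NT, 56.0 with miR-195 and 44.5 with miR-497. The miR-195 library stood apart, at a ratio of 1.26 (1.22 to 1.3), while the ratio with miR-497 was 1.002 (0.969 to 1.04). ITGA3 had an RPKM of 1.13, 1.959 and 1.946 from 141, 289 and 303 reads, with ratios of 1.73 (1.41 to 2.11) and 1.72 (1.41 to 2.10). ITGB4, which pairs with ITGA6 in hemidesmosomes, had an RPKM of 0.625, 0.835 and 0.924, with ratios of 1.34 (1.03 to 1.73) and 1.48 (1.15 to 1.90). NT was lowest for all 3 laminin-binding subunits, by a margin inside counting error for ITGA6 with miR-497.

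Among the vitronectin and fibronectin receptors, ITGAV differed most between the mimics. Its RPKM was 47.9 in NT, 60.1 with miR-195 and 42.6 with miR-497, with ratios of 1.26 (1.22 to 1.29) and 0.890 (0.864 to 0.916). The direct ratio of miR-195 to miR-497 was 1.41 (1.37 to 1.45), the highest of the 10 genes and above that of 92.8% of all genes. ITGB5, its abundant partner, had an RPKM of 42.9, 55 and 52.7 and was higher with both mimics, at 1.28 (1.23 to 1.34) and 1.23 (1.18 to 1.28).

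The scarce subunits of this class carried wide intervals. ITGA5 had 25, 34 and 50 reads in NT, miR-195 and miR-497 total RNA, with ratios of 1.15 (0.684 to 1.92) and 1.60 (0.988 to 2.58), both including no difference. ITGB3 had 9, 36 and 35 reads, with ratios of 3.37 (1.62 to 7.0) and 3.11 (1.49 to 6.46). Both ratios of ITGB3 rest on the same 9 reads of NT, and ITGB3 shares 2266 exonic bases with an overlapping readthrough gene on the same strand.

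The ratio of Ago2-IP to total RNA in NT gives the position of each subunit before a mimic was added. In 9 of the 10 genes Ago2-IP was 2-fold or more lower than total RNA, beside 69.1% of all genes. ITGA2 was the exception, with an RPKM of 12.2 in Ago2-IP against 21.8 in total RNA, a ratio of 0.559 (0.528 to 0.592) that lay above that of 72.9% of all genes. No integrin gene was 2-fold or more higher in Ago2-IP, beside 6.69% of all genes. By counting intervals ITGA2 lay wholly above the median gene and ITGA6, ITGAV, ITGB1 and ITGB5 wholly below it, beside 33.5% and 37.2% of all genes. ITGB1 was lowest at 0.170 (0.162 to 0.179), and the other 8 lay between 0.210 and 0.490, where the median gene was at 0.326. With the mimics ITGA2 stood at 0.626 for miR-195 and 0.536 for miR-497, the highest ratio of the 6 abundant genes in each condition. The order of the others differed, with ITGB1 lowest of the abundant genes in NT and ITGB5, at 0.137, lowest with miR-497.

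In Ago2-IP with miR-195, 4 of the 10 genes were 2-fold or more higher than in NT (ITGA3, ITGA5, ITGB3 and ITGB4) and 0 were 2-fold or more lower, beside 23.7% and 2.58% of all genes. All 4 are scarce, with 3 to 28 reads in NT Ago2-IP. The 3 genes with a match stood at 0.891 (ITGA1), 1.05 (ITGB1) and 1.13 (ITGA2), lower than the 7 others and lower than the median gene at 1.39. ITGAV, the next, stood at 1.14 (1.05 to 1.24), and its interval overlapped that of ITGA2. Over all genes the median log2 ratio was 0.50 for 3610 with a match and 0.49 for 9293 without one. ITGA2 had an Ago2-IP RPKM of 12.2 in NT and 13.8 with miR-195, and the interval of its ratio was 1.05 to 1.21. ITGB5 stood out among the abundant genes, with an RPKM of 9.0 in NT and 17.4 with miR-195, a ratio of 1.93 (1.73 to 2.16). By counting intervals 4 genes (ITGA3, ITGA5, ITGB4 and ITGB5) lay wholly above the median gene and 3 (ITGA2, ITGAV and ITGB1) wholly below it, beside 24.3% and 23.4% of all genes.

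In Ago2-IP with miR-497, ITGB4 was 2-fold or more lower, beside 6.27% of all genes, and 0 genes were 2-fold or more higher, beside 3.48%. ITGB4 had 16 reads in NT and 4 with miR-497, and its ratio of 0.395 had an interval of 0.132 to 1.18. ITGA2 had an RPKM of 10.1, the lowest of the 3 Ago2-IP libraries, and a ratio of 0.824 (0.758 to 0.895), close to the median gene at 0.855. ITGB1 stood at 0.823 (0.760 to 0.890) and ITGA1 at 0.899. ITGA6 at 1.04 (0.948 to 1.14) and ITGAV at 0.992 (0.906 to 1.09) were the 2 genes whose intervals lay wholly above the median, beside 11.4% of all genes. None lay wholly below it, beside 11.9%, and for the other 7 with an interval it included the median.

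The fold enrichment score sets the Ago2-IP to total RNA ratio with a mimic over the same ratio in NT, and the study ranked candidate targets by it. With miR-195, 2 of the 10 genes scored 2 or more (ITGA5 at 3.10 and ITGB4 at 2.02) and 0 scored 0.5 or less, beside 20.4% and 3.70% of all genes. Neither holds TGCTGCT, and their intervals were 1.19 to 8.06 and 1.06 to 3.86. ITGA2 scored 1.12 (1.03 to 1.21), ITGB1 1.10 (1.03 to 1.18) and ITGA1 0.920, all under the median gene at 1.38. By counting intervals 0 genes lay wholly above this median and 4 (ITGA2, ITGA6, ITGAV and ITGB1) wholly below it, beside 21.7% and 19.1% of all genes. Of the 3534 scored genes with a match, ITGA2 ranked 2709, ITGB1 2760 and ITGA1 3147, where the median score was 1.48 for genes with and 1.37 for genes without a match.

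With miR-497, 2 genes scored 0.5 or less, ITGA5 at 0.371 (0.0904 to 1.52) and ITGB4 at 0.267 (0.0868 to 0.822), beside 16.3% of all genes. No integrin gene scored 2 or more, beside 3.10% of all genes. ITGA2 scored 0.958 (0.873 to 1.05), and its interval included 1 while lying above the median gene at 0.824. Of the 3463 scored genes with a match, ITGA1 ranked 921, ITGA2 1295 and ITGB1 1363, so that ITGA2 stood within the top 37.4%. ITGAV, without a match, had the highest score of the 10 at 1.11 (1.01 to 1.23), and ITGB5, with the 6-base core, scored 0.651 (0.558 to 0.761), wholly under the median. By counting intervals 4 genes (ITGA2, ITGA6, ITGAV and ITGB1) lay wholly above this median and 2 (ITGB4 and ITGB5) wholly below it, beside 19.2% and 17.5% of all genes. ITGB5 had instead scored 1.51 (1.34 to 1.697) with miR-195.

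**Figure D4:**
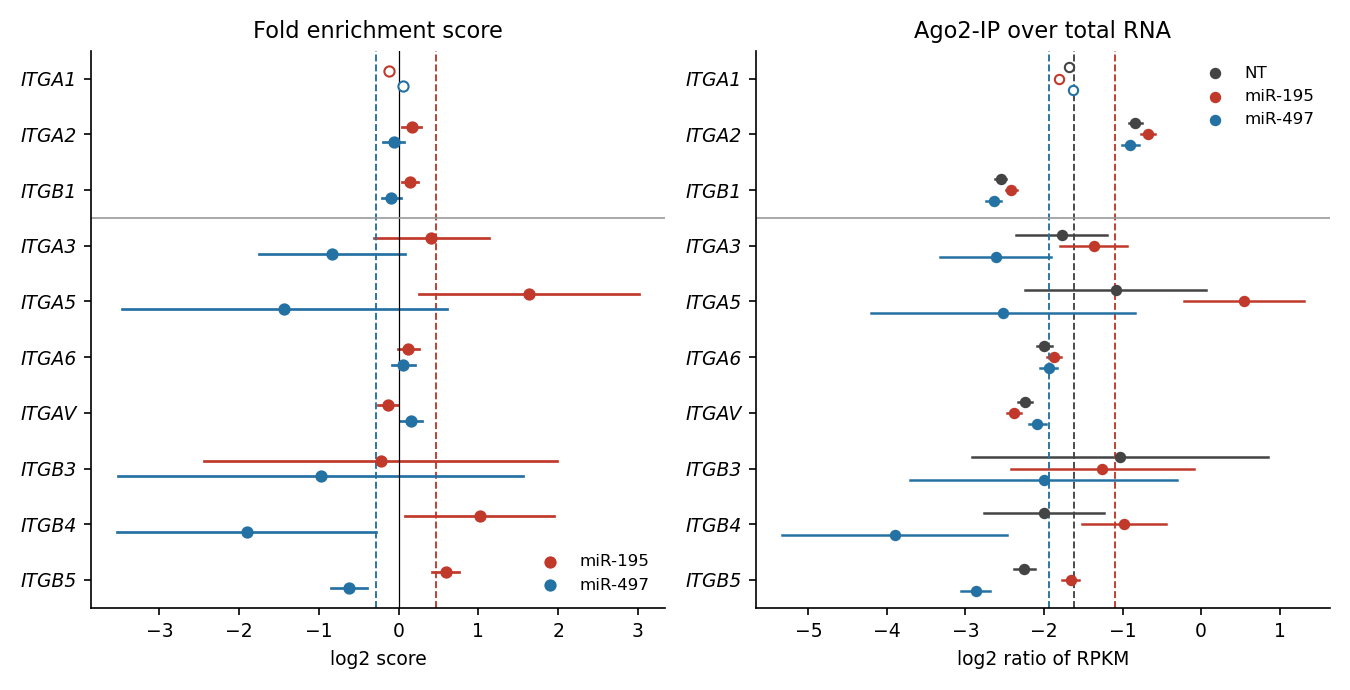
Left, log2 fold enrichment score with miR-195 (red) and miR-497 (blue); right, log2 ratio of Ago2-IP to total RNA in NT (black) and with each mimic. Bars are 95% counting intervals, open circles have none, dashed lines are the medians of all genes, and the 3 genes above the grey line hold TGCTGCT. The scores of those 3 lie near 0, and ITGA2 stands to the right of the other abundant genes in the right panel.

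The study precipitated Ago2, whose mRNA is listed as EIF2C2. Its RPKM in Ago2-IP was 28.1 in NT, 34.2 with miR-195 and 10.2 with miR-497. The total RNA values were 8.89, 7.11 and 7.42. The miR-497 Ago2-IP library thus stood apart for this mRNA, at 0.364 of NT, and it also had the fewest inferred reads. The part of these differences in the integrin scores was not tested.

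The course of ITGA2 over the 6 libraries was most like that of SEC24B, TEX2, FAM19A4, LARP4B and ENPP1, with Pearson correlations of log2 RPKM between 0.998 and 0.999, chosen from the 8581 genes that reached an RPKM of 1 in every library. These correlations are over 6 points that share the difference between Ago2-IP and total RNA. SEC24B, the nearest, had an RPKM of 16.9, 16.97 and 13.9 in total RNA, then of 8.11, 8.95 and 6.30 after Ago2-IP. The other abundant integrin genes correlated with ITGA2 at 0.945 (ITGA1) to 0.967 (ITGB5), and 46.1% and 77.0% of the 8581 genes had a lower correlation than these.

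Of 16 other integrin subunit genes, 3 reached an RPKM of 1 in a total RNA library. ITGAE, the alpha subunit of an E-cadherin receptor of T cells, had an RPKM of 4.79 in NT, 4.18 with miR-195 and 4.13 with miR-497. ITGA10, a further collagen-binding subunit that also holds TGCTGCT, stood at 1.853, 1.496 and 1.499. ITGB2, known from leukocytes, stood at 3.67, 5.78 and 6.79, higher with both mimics. Of the 8 subunits that could be compared in total RNA, 1 was 2-fold or more higher with each mimic and 0 were lower. Of all genes, 5.81% (miR-195) and 6.67% (miR-497) were higher and 3.20% and 2.11% lower. The higher subunits were ITGA9 with miR-195 and ITGA2B with miR-497, both scarce, at NT RPKM of 0.0510 and 0.0121. ITGA9 holds TGCTGCT as well. ITGA8, ITGB6 and ITGB8, the last 2 being alternative partners of ITGAV, were listed at 0 in every library.

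Of 25 genes for matrix ligands, 12 reached an RPKM of 1 in a total RNA library, and all 5 collagen chains listed stayed under 1. Fibronectin (FN1), a ligand of ITGA5 and ITGAV integrins, had an RPKM of 1337 in NT, 1574 with miR-195 and 1179 with miR-497. Of the 19 ligand genes compared in total RNA, 4 were 2-fold or more higher and 0 lower with miR-195, beside 5.81% and 3.20% of all genes. With miR-497, 2 were higher and 1 lower, beside 6.67% and 2.11% of all genes. Apart from thrombospondin 1 the ligand genes past 2-fold (COL1A1, COL4A2 and LAMA1, then COL1A1 and LAMA3, and SPP1) stayed under an RPKM of 1 in total RNA. Over the 19 compared ligand genes the log2 medians were 0.49 (miR-195) and 0.58 (miR-497), where those of all genes were 0.02 and 0.09. Scarce genes enter these medians. Among the 11 ligand genes that reached an RPKM of 1 in every library, the middle values were 0.19 (LAMB1) and 0.15 (FGA). Thrombospondin 1 (THBS1) had an RPKM of 7.21, 17.0 and 10.1, a ratio of 2.35 with miR-195. The laminin chains LAMB2 and LAMA5 had ratios of 1.44 (miR-195) and 1.72 (miR-497), and LAMC1, a laminin chain gene with a match, at 0.970 with miR-497. The fibrinogen chains FGG and FGA stood at 0.743 and 0.909 with miR-195, and vitronectin (VTN) at 1.697 with miR-497.

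Among the 18 activators and adaptors that link integrin tails to actin, 0 were 2-fold or more lower and 1 was higher with each mimic (PARVB with miR-195 and LIMS2 with miR-497, at NT RPKM of 0.0207 and 1.13). Their log2 medians were 0.35 and 0.34, where those of all genes were 0.02 and 0.09. Of all genes, 5.81% and 6.67% were 2-fold or more higher and 3.20% and 2.11% lower. FERMT2, the kindlin that binds beta tails and holds TGCTGCT, was furthest below the median of all genes, with an RPKM of 83.9 in NT, 59.2 with miR-195 and 62.5 with miR-497. Its ratios were 0.705 and 0.745. LIMS1, the PINCH adaptor of the ILK complex and also with a match, followed at 0.848 and 0.767. Talin (TLN1), which holds a match as well, stood at 1.39 with miR-195, alpha-actinin 4 (ACTN4) at 1.36 and 1.499, and zyxin (ZYX), with a match, at 1.55 with miR-497. A match was thus present in genes on both sides of the median.

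Among 5 proteins that hold integrins inactive or remove them from the surface, 0 were 2-fold or more lower, and 1, DOK1 at an RPKM under 1, was higher with miR-497. The shares of all genes were 3.20% (miR-195) and 2.11% (miR-497) lower and 5.81% and 6.67% higher. They apply also to the kinases and the ITGB4 partners that follow. Filamin A (FLNA), which competes with talin, had ratios of 1.56 and 1.74, SHARPIN stood at 1.91 with miR-497, the endocytic adaptor DAB2 at 1.52 with miR-195 and ITGB1BP1 at 0.944 with miR-497. The 13 kinases and signalling genes had medians of -0.01 and 0.04, with 1 gene, FYN at an RPKM under 1, 2-fold or more higher with miR-195 and 0 otherwise past 2-fold. CRKL, an adaptor that holds a match, stood at 0.713 and 0.883 and its relative CRK at 0.787 and 0.900. The scaffold BCAR1, with a match, stood at 1.44 and 1.77, DOCK1, an activator of RAC1, at 1.09 with miR-195, and GIT1, also with a match, at 1.36 with miR-497. The 4 partners of ITGB4 had 0 genes past 2-fold, with plectin (PLEC) at 1.34 and 1.56, dystonin (DST) at 1.204 and 0.970 and the tetraspanin CD151, which holds a match, at 1.37 with miR-497.

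Divided by TGCTGCT, the genes of these lists that reached an RPKM of 1 in every library, without the 10 integrin genes, had a median log2 ratio of -0.03 (16 with a match) and 0.27 (27 without) with miR-195. With miR-497 the medians were 0.28 and 0.27. This division, too, was made after values had been seen.

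**Figure D5:**
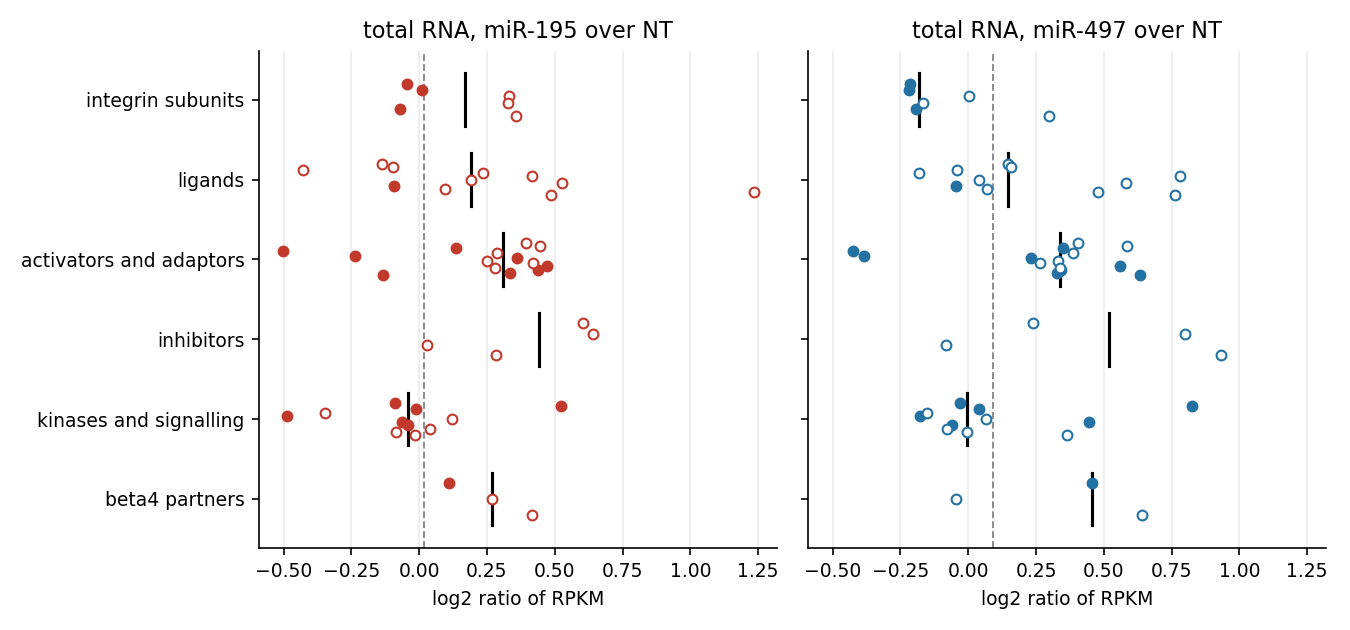
Log2 ratio of total RNA RPKM, mimic over NT, for integrin subunits and 5 lists of pathway genes, limited to genes that reached an RPKM of 1 in every library; each point is a gene, filled where it holds TGCTGCT. Black bars are list medians and the dashed line is the median of all genes. The filled integrin points lie below the line with both mimics, and the adaptors and the kinases have filled points on both sides of it.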

How the data were processed

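Total RNA and Ago2-IP RNA of Hep G2 cells were sequenced in 6 libraries, 1 per group. The authors mapped 36-base reads to hg19 with ELANDv2 and deposited RPKM values made with CASAVA (version 1.7 in the submitters' processing notes). The gene annotation, the read filters and the libraries with poly-A selection are not given in the sources used here. All 6 value columns were matched to samples, with 0 left over. RPKM was used as deposited, and repeated lines were averaged for 28 symbols.

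Ratios were taken without a pseudocount over genes above 0 in the libraries compared. A gene was counted as higher or lower past 2-fold. With 1 library per group no test was made and no p-value is given. Read numbers were inferred as the smallest whole numbers in the ratio of a gene's RPKM once each was divided by what 1 read is worth in its library, allowing 0.01 chance matches, which worked for 14235 (91.9%) of the 15486 genes detected in 3 libraries or more. Some inferred numbers were wrong: of 12274 genes compared, 81.7% had reads that imply a length within 1.5-fold of the canonical transcript, and among the rest scarce genes such as LAMA3 and LAMB3 were given too many reads. All 9 integrin genes with reads were within 1.5-fold. The 95% intervals of ratios assume Poisson reads on the log scale (1.96 SE), and those of levels are exact Poisson intervals. The inference of read numbers was also run on data simulated from read numbers it had already given. That run cannot show how often the inference is wrong for the real genes. Of the table's symbols, 16588 matched the annotation directly and 1808 through an older symbol. The mature sequences of both miRNAs were found in RefSeq.

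The integrin genes, the lists, and the ways of dividing them were chosen with earlier results of these data known. Named genes were the 10 integrin genes, other subunits with an RPKM of at least 1 in a total RNA library, the 2 genes of each list furthest below and above the median of all genes with each mimic limited to genes that reached an RPKM of 1 in every library, the 5 genes most like ITGA2, and EIF2C2. PELO and the other list genes past 2-fold were named after their values were seen, and marker lists served as a check of the cell type. The endothelial and fibroblast lists had summed RPKM between 0.0330 and 2.64. Alternatives were pseudocounts of 0.1 and 1, scaling by each library's median, a minimum RPKM of 1, a 1.5-fold limit, the largest line per symbol, sites of 6 or 8 bases and canonical transcripts only. Limiting the shares of all genes by counting interval to genes of matching length was added after seeing the data. The software was Python 3.11.15, matplotlib 3.10.9, scipy 1.17.1, pandas 2.3.3 and numpy 2.4.6.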

Additional observations from a re-analysis of the deposited data

Results flagged for a closer look

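In 7 cases an integrin gene had counting intervals on opposite sides of no difference in a pair of comparisons with the same NT cells. The difference between the comparisons was not tested, since each rests on 1 library per group. Values are log2 ratios, with miR-195 before miR-497. ITGAV total RNA had 0.33 and -0.17. ITGA2 in Ago2-IP had 0.17 and -0.28, and with each library divided by its median these became -0.34 and -0.01, so the opposite signs were lost. ITGB5 in Ago2-IP had 0.95 and -0.32, which became 0.44 and -0.05. The log2 scores were -0.14 and 0.16 for ITGAV, 1.02 and -1.90 for ITGB4 and 0.59 and -0.62 for ITGB5, and with the same scaling -0.66 and 0.53, 0.50 and -1.53, and 0.07 and -0.24. With miR-497 ITGB5 had 0.30 in total RNA and -0.32 in Ago2-IP, which became 0.19 and -0.05. The medians of all genes in Ago2-IP also lay on opposite sides, at 0.48 with miR-195 and -0.23 with miR-497. Read against the medians of all genes, only ITGAV, in total RNA and in the score, kept intervals on opposite sides. The intervals of ITGA2 and ITGB5 in Ago2-IP with miR-497 included the median. So did those of ITGB4 and ITGB5 in the miR-195 score.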

How the results depend on the processing

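No paired analysis was possible because each group holds 1 library and the labels carry no replicate numbers; for the same reason no library could be left out. Keeping the largest line of a repeated symbol moved none of 70 values, and with the 6-base core or canonical transcripts the number of integrin genes with a site stayed within 1.5 times of 3, while 0 held the 8-base TGCTGCTA. The counts past 2-fold rest on scarce genes. In total RNA the 1 gene higher with miR-195 became 0 with a pseudocount of 1 or a minimum RPKM of 1, and 2 at a limit of 1.5-fold; the 1 gene higher with miR-497 became 0 with either pseudocount or the minimum, and 3 at 1.5-fold. In Ago2-IP the 4 genes higher with miR-195 became 2 with a pseudocount of 0.1 or median scaling, and 0 with a pseudocount of 1 or the minimum; with miR-497 the 1 lower gene became 0 with either pseudocount or the minimum, and at 1.5-fold 2 were lower and 1 higher. The 2 scores of 2 or more with miR-195 became 1 with a pseudocount of 0.1 or median scaling and 0 with a pseudocount of 1 or the minimum; the 2 low scores with miR-497 became 1 and 0 with the pseudocounts, 0 with the minimum and 5 at 1.5-fold. The 9 genes lower in NT Ago2-IP than in total RNA became 5 with a pseudocount of 1 or the minimum and 0 with median scaling.

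Medians of the integrin genes (log2) moved in total RNA with miR-497 to -0.17 with the minimum; in Ago2-IP with miR-195 to 0.52 and 0.24 with the pseudocounts, 0.19 with median scaling and 0.18 with the minimum; in Ago2-IP with miR-497 to 0.049 with median scaling; in the miR-195 score to -0.37 with median scaling; in the miR-497 score to -0.12 with a pseudocount of 1, 0.020 with median scaling and -0.0026 with the minimum; and in the NT ratio of Ago2-IP to total RNA to -1.59 and -1.14 with the pseudocounts, -0.25 with median scaling and -2.12 with the minimum. Medians of all genes moved with a pseudocount of 1 to 0.20 (Ago2-IP, miR-195), 0.16 (miR-195 score) and -0.099 (miR-497 score), and with median scaling to -0.040, 0.039 (Ago2-IP with each mimic), -0.056 and 0.094 (scores). In the NT ratio they moved to -1.29 and -0.88 with the pseudocounts, 0.021 with median scaling and -1.83 with the minimum. With median scaling the NT ratio turned above 0 for ITGA2 (0.80), ITGA5 (0.55) and ITGB3 (0.61), since that scale sets the typical gene near 0. ITGA2 then stood at -0.33 in total RNA with miR-497, at -0.34 (miR-195) and -0.01 (miR-497) after Ago2-IP, and at -0.36 in the miR-195 score. Limited, after seeing the data, to the 10022 genes of matching inferred length, the shares of all genes by counting interval moved by -3.01 to 3.18 percentage points. With 1 library per group, and 3 to 25 NT reads for ITGA5 and ITGB3, depth limits what can be said of the scarce subunits.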
